A study of Mus musculus with 28 samples.

Results

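Glutathione transferases are a set of 10 genes followed here in the mouse retroperitoneal fat pad: Gsta3, Gsta4, Gstm1, Gstm2, Gstm5, Gstt1, Gstz1, Gstp1, Gstk1 and Mgst1. They are 10 of the 18195 genes tested, and each was taken by name. Each is represented by the probe set annotated to that gene alone with the highest mean over the 28 arrays, and any further probe set is given beside it. The CLA mice were fed conjugated linoleic acid, as the trans-10 cis-12 isomer at 0.5%, and the control mice a diet that the labels call control. All were C57BK/6J, as the labels spell it, and 9 weeks old. Both diets were sampled after 1, 2, 3, 4, 7, 10 and 17 days, with 2 arrays for every diet on every day. Each array holds pads pooled from 10 mice, and it is not stated whether duplicate arrays come from different pools. So p-values of a single day measure the spread between arrays, which may be technical. The same holds for p-values of tests that compare days.

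Glutathione transferases join the tripeptide glutathione to reactive molecules, so that these can be exported and broken down. The soluble enzymes fall into classes named by Greek letters, of which alpha, mu, theta, zeta and pi are followed here, while the kappa enzyme resides in mitochondria and peroxisomes and the microsomal one in membranes. In fat cells the alpha enzyme GSTA4 is known for removing hydroxynonenal, an aldehyde that forms when polyunsaturated fatty acids are oxidised. Several members in rodents are known targets of NRF2, a transcription factor that answers oxidants by binding the antioxidant response element.

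The values are log2 expression values, so that a difference of 1 is a doubling, and they rank arrays for 1 probe set and not genes against each other. The 2 arrays of a group correlated at 0.979 to 0.995 across genes. Of 12 measured adipocyte markers 12 fell over all 7 days, where 19.8% of all genes tested fell, with the hormone gene Adipoq lower by 0.96. None is near the bottom of the scale, the lowest value of any on any array being 5.64. In bulk tissue, fewer cells of a type and less RNA per cell cannot be told apart. The array controls for Gapdh and Actb, which compare the 3′ with the 5′ end of a transcript as a sign of RNA integrity, stood apart on 3 of the 4 arrays of day 1. The log2 difference for Gapdh was 1.27 and 1.31 on the CLA arrays of day 1 and 0.15 and 1.33 on the control arrays of day 1, and it was 0.32 to 1.20 on the other CLA arrays and 0.15 to 1.04 on the other control arrays. Replicate 1 of control day 1 and replicate 1 of control day 2 gave low values for several members. On day 1 that control array, at 1.33, had RNA controls close to those of the CLA arrays, and the other control array, at 0.15, did not, so results that rest on either are given without each in turn.

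Over all 7 days 9 of the 10 transferases fell on the CLA diet, where 19.8% of all genes tested fell, and Gstp1 did not pass. A gene is called changed where its adjusted p in limma, over all genes tested, is under 0.05. Gstk1 fell by 2.21 ± 0.10 (SE, n = 7 days, adjusted p = 4.14e-06), Gstz1 by 2.16 ± 0.08 (adjusted p = 1.82e-06) and Gsta3 by 2.13 ± 0.27 (adjusted p = 0.000309), which leaves 0.217, 0.223 and 0.228 of the control level. Gsta4 fell by 1.66 ± 0.21, Gstm1 by 1.38 ± 0.12, Gstt1 by 1.35 ± 0.15 and Gstm5 by 1.04 ± 0.10. The smaller falls were those of Gstm2, by 0.62 ± 0.12 (adjusted p = 0.00265), and Mgst1, by 0.38 ± 0.06 (adjusted p = 0.000792). These 9 genes were lower with CLA on 7 of 7 days. The median over the 10 members was -1.37, beside -0.03 over all genes tested. Without day 1, the day with the uneven RNA controls, 9 members still passed. The count was also 9 without replicate 1 of control days 1 and 2, and it was 8 without replicate 2 of these control days, where Gstm2 did not pass (-0.46, adjusted p = 0.104).

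By day, 4 members fell on day 1 (10.8% of all genes fell), 7 on day 2 (5.34%), 8 on day 3 (11.0%), 8 on day 4 (11.3%), 9 on day 7 (8.57%), 8 on day 10 (10.2%) and 6 on day 17 (8.78%). On day 1, 1 member rose, Gstp1, where 7.96% of all genes rose. The members with both CLA arrays below both control arrays numbered 8 on days 1 and 2, 9 on days 3, 4, 7 and 10 and 10 on day 17. That pattern held for 22.4% of all genes on day 1, 23.5% on day 2, 28.7% on day 3, 31.4% on day 4, 29.6% on day 7, 33.3% on day 10 and 33.4% on day 17. The member with both CLA arrays above both control arrays on days 1 and 2 was Gstp1, a pattern of 22.5% of all genes on day 1 and 19.0% on day 2. The count of day 1 depended on single arrays: 3 members passed without replicate 2 of CLA day 1. In the control diet 0 of 10 members varied with the day in limma's F test, where 0.115% of all genes did, and 0 members did so at an unadjusted p under 0.05.

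**Figure D1:**
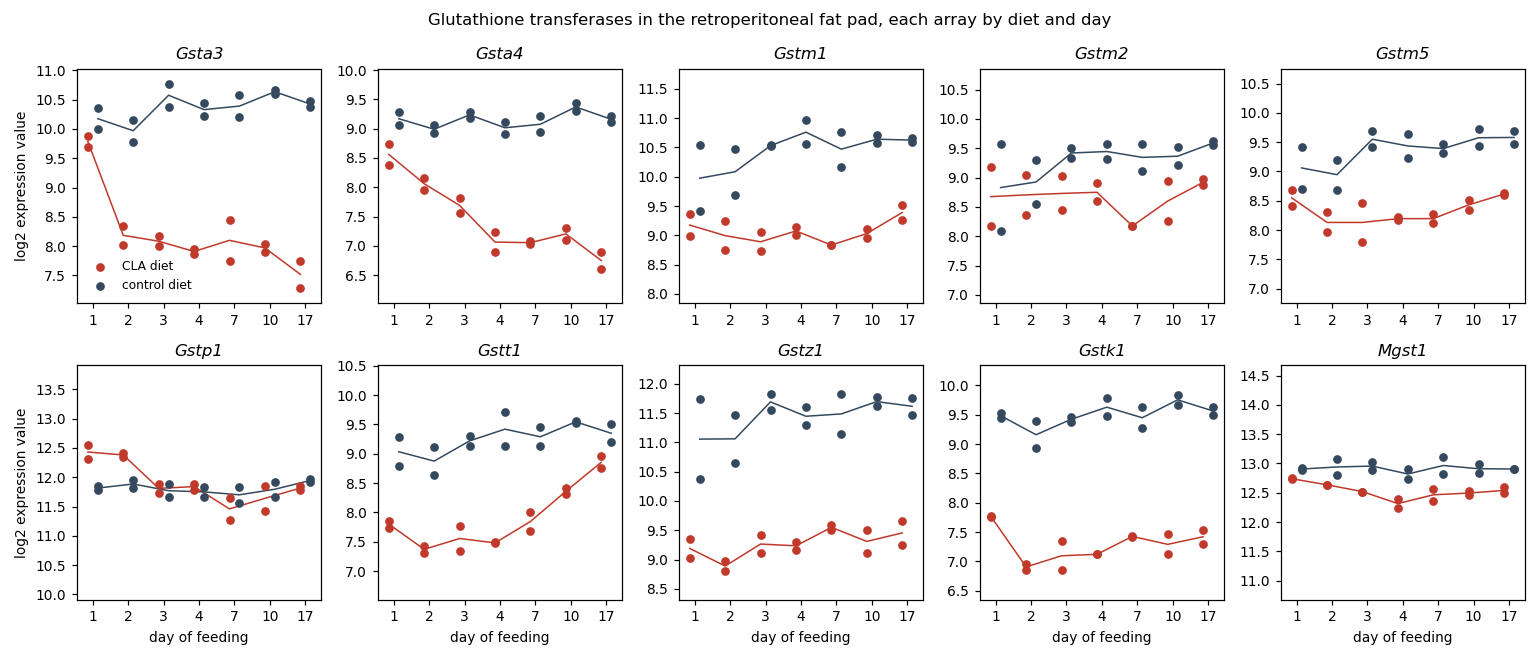
Log2 expression value (vertical axis, each panel spanning 4 log2 units) of the 10 glutathione transferases by day of feeding, with the CLA arrays in red, left of the control arrays in dark blue, and lines through the means of 2 arrays. The CLA and control arrays of Gstk1 and Gstz1 are apart from day 1 on, those of Gsta3 and Gsta4 move apart over the days, and those of Gstt1 come closer after day 4.

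The alpha class members Gsta3 and Gsta4 fell in steps. Gsta4 makes the enzyme that clears hydroxynonenal, and the mouse Gsta3 enzyme is known for conjugating the epoxide of aflatoxin. Gsta3 read 9.88 and 9.69 on the CLA arrays of day 1, against 10.00 and 10.35 on the control arrays. On day 2 it read 8.35 and 8.02 with CLA, against 9.78 and 10.16 in controls. On day 3 it read 8.0 and 8.17 with CLA, against 10.77 and 10.38 in controls. The arrays of the diets did not overlap on these days, but the day 1 difference, -0.39 ± 0.22, did not pass (adjusted p = 0.269), whereas on day 2 Gsta3 fell by 1.78 ± 0.22 (adjusted p = 5.25e-05).

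From day 4 on Gsta3 stayed low with CLA. It read 7.95 and 7.87 with CLA on day 4, against 10.22 and 10.44 in controls, and 8.45 and 7.75 with CLA on day 7, against 10.20 and 10.58 in controls. On day 10 it read 8.04 and 7.90 with CLA, against 10.67 and 10.60 in controls, and on day 17 it read 7.29 and 7.75 with CLA, against 10.38 and 10.47 in controls. The fall of day 17, by 2.90 ± 0.22 (adjusted p = 3.27e-08), was the largest of any member on any day. A further Gsta3 probe set with a lower mean of 6.78 gave -0.04 on day 1 and -2.0 over all 7 days.

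Gsta4 declined more evenly. On day 1 it read 8.74 and 8.38 with CLA, against 9.28 and 9.06 in controls, and on day 2 it read 8.16 and 7.96 with CLA, against 9.06 and 8.92 in controls. On day 3 it read 7.56 and 7.82 with CLA, against 9.28 and 9.19 in controls, and on day 4 it read 7.24 and 6.89 with CLA, against 8.91 and 9.12 in controls. Its control arrays barely moved over the days, between 8.91 and 9.44, while the CLA arrays of day 17 lay lowest or level with the lowest of the earlier days. On day 7 it read 7.08 and 7.03 with CLA, against 9.21 and 8.94 in controls, on day 10 it read 7.10 and 7.31 with CLA, against 9.30 and 9.44 in controls, and on day 17 it read 6.89 and 6.61 with CLA, against 9.21 and 9.11 in controls. Gsta4 fell by 0.61 ± 0.17 on day 1 (adjusted p = 0.0136), by 1.95 ± 0.17 on day 4 (adjusted p = 1.18e-07) and by 2.41 ± 0.17 on day 17 (adjusted p = 9.69e-09). The call of day 1 was lost without replicate 2 of CLA day 1 (-0.43, adjusted p = 0.161) or replicate 1 of control day 1 (-0.50, adjusted p = 0.105).

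The kappa and zeta members were low from the first day. Gstk1 makes a mitochondrial and peroxisomal enzyme that also helps the assembly of adiponectin, the hormone of fat cells, and Gstz1 makes an isomerase in the breakdown of tyrosine. Gstk1 read 7.76 and 7.78 on the CLA arrays of day 1, against 9.44 and 9.53 on the control arrays. On day 2 it read 6.96 and 6.85 with CLA, against 8.93 and 9.39 in controls. Every CLA array of Gstk1 over the 7 days, from 6.85 to 7.78 with a median of 7.32, lay below every control array, from 8.93 to 9.84 with a median of 9.49. Gstk1 fell by 1.72 ± 0.18 on day 1 (adjusted p = 2.01e-06) and fell by 2.51 ± 0.18 on day 4 (adjusted p = 1.74e-08), its largest fall, and it stood at 7.54 and 7.30 with CLA on day 17, against 9.50 and 9.63 in controls.

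Gstz1 was also apart on all 7 days. Its CLA arrays lay between 8.80 and 9.66 with a median of 9.28, and its control arrays between 10.37 and 11.83 with a median of 11.57. No CLA array of any day reached the lowest control array, which was replicate 1 of control day 1. On that day Gstz1 read 9.03 and 9.35 with CLA, against 10.37 and 11.74 in controls, with the control arrays far apart. Gstz1 fell by 1.87 ± 0.33 on day 1 (adjusted p = 0.000483) and fell by 2.16 ± 0.33 on day 17 (adjusted p = 9.23e-05). The day 1 value was -2.55 without replicate 1 of that control and -1.18 without replicate 2, and passed either way. Over all 7 days Gstz1 fell by 2.32 without replicate 1 of control days 1 and 2 and fell by 2.01 without replicate 2.

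The theta class member Gstt1, whose enzyme handles small halogenated molecules, fell early and came back towards the control level. On day 1 it read 7.74 and 7.86 with CLA, against 8.79 and 9.28 in controls, and on day 4 it read 7.49 and 7.47 with CLA, against 9.13 and 9.71 in controls. Its lowest CLA array was one of day 2, which read 7.43 and 7.31 with CLA, against 8.64 and 9.11 in controls, and day 3 read 7.35 and 7.76 with CLA, against 9.13 and 9.31 in controls. After day 4 the CLA arrays were higher at each later time. On day 7 Gstt1 read 7.68 and 8.01 with CLA, against 9.13 and 9.45 in controls, on day 10 it read 8.31 and 8.41 with CLA, against 9.53 and 9.56 in controls, and on day 17 it read 8.75 and 8.96 with CLA, against 9.20 and 9.50 in controls. The difference was largest on day 4, when Gstt1 fell by 1.94 ± 0.21 (adjusted p = 1.57e-06), and the difference of day 17, -0.49 ± 0.21, did not pass (adjusted p = 0.119). The effect of CLA over days 7, 10 and 17 was less negative than over days 1, 2 and 3, by 0.43 ± 0.17. That did not pass either (adjusted p = 0.144), nor did the test of the diet effect between all days (adjusted p = 0.0521). The latter test depended on the processing. Its adjusted p in limma was 0.003 with the replicate block, 0.0482 with arrays centred on their median and 0.0651 with the most variable probe set.

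The mu class members Gstm1, Gstm2 and Gstm5, general conjugating enzymes of the cytosol, fell to different degrees. In the reference annotation the mu genes Gstm5, Gstm7, Gstm6, Gstm3, Gstm2, Gstm1 and Gstm4 are 7 successive protein-coding genes of chromosome 3, and as close relatives their transcripts can bind the same probes, so values of single mu genes are uncertain. Gstm1 ranged from 8.73 to 9.52 with CLA with a median of 9.02, and from 9.41 to 10.96 in controls with a median of 10.55. The overlap comes from 1 control array, replicate 1 of day 1, at 9.41. Gstm1 fell on 6 of 7 days, by up to 1.69 ± 0.30 on day 4 (adjusted p = 0.000275), and did not pass on day 1 at -0.80 (adjusted p = 0.072), and the value hung on which control array was kept. Without replicate 1 of control day 1 Gstm1 fell by 1.36 (adjusted p = 0.00325), and without replicate 2 the difference was -0.23 (adjusted p = 0.689). Its call of day 2 was lost without replicate 2 of control day 2 (adjusted p = 0.467) or replicate 1 of CLA day 2 (adjusted p = 0.209), and that of day 17 without replicate 1 of CLA day 17 (adjusted p = 0.0628). Its 3 further probe sets gave -1.42, -1.09 and -0.73 over all 7 days, beside -1.38 for the set used, an x set that may bind related transcripts.

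Gstm5 ranged from 7.79 to 8.69 with CLA with a median of 8.32, and from 8.69 to 9.72 in controls with a median of 9.43. It fell from day 2 to day 17, by 1.42 ± 0.24 on day 3 (adjusted p = 0.000237) and by 0.96 ± 0.24 on day 17 (adjusted p = 0.00714). On day 1 it read -0.51 (adjusted p = 0.172), without replicate 1 of control day 1 it passed at -0.87 (adjusted p = 0.0301), and without replicate 2 it read -0.15 (adjusted p = 0.795). The call of day 2 (-0.81) was lost without either CLA array or replicate 2 of that day's control, with a highest adjusted p = 0.512, and that of day 17 without replicate 2 of that control (adjusted p = 0.0729). Gstm2 had the widest spread between arrays of a group, with 8.17 and 9.18 on the CLA arrays of day 1, against 8.09 and 9.57 on the control arrays. The diets overlapped on days 1 and 2 and were apart from day 3 on, and Gstm2 passed on day 7 alone, where it read 8.18 and 8.17 with CLA, against 9.11 and 9.58 in controls (-1.17 ± 0.40, adjusted p = 0.0485). That call was lost without any 1 of the 4 arrays of day 7, with adjusted p from 0.0706 to 0.274.

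Mgst1 makes the microsomal transferase, an abundant membrane enzyme that also reduces lipid peroxides. It ranged from 12.24 to 12.75 with CLA with a median of 12.52, and from 12.74 to 13.11 in controls with a median of 12.90. The 2 ranges meet at single arrays, and within each of the 7 days both CLA arrays lay below both controls. Mgst1 fell on days 3, 4, 7 and 10, by 0.51 ± 0.13 on day 4 (adjusted p = 0.00722), and did not pass on day 1 (-0.17), day 2 (-0.30) or day 17 (-0.36, adjusted p = 0.057), which passed with quantile normalisation repeated (adjusted p = 0.00551). The call of each of these 4 days was lost without at least 2 of its 4 arrays in turn, with adjusted p from 0.0812 to 0.189. A further Mgst1 probe set with a mean of 3.02, near the bottom of the scale, gave -0.07 over all 7 days. With the mean of probe sets the calls of days 3, 4 and 7 were lost (adjusted p = 0.216, 0.0515 and 0.102 in limma). With arrays centred on their median that of day 10 was lost (adjusted p = 0.0534).

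Gstp1, the pi class enzyme, which is also known to bind the stress kinase JNK, was the one member that did not pass over all 7 days. Its close relative Gstp2 may bind the same probes. On day 1 it read 12.31 and 12.55 with CLA, against 11.85 and 11.78 in controls, and on day 2 it read 12.35 and 12.41 with CLA, against 11.95 and 11.82 in controls. On both days the CLA arrays lay above the control arrays. Gstp1 rose by 0.61 ± 0.16 on day 1 (adjusted p = 0.0114), and the difference of day 2, 0.49 ± 0.16, did not pass (adjusted p = 0.063). The day 2 difference passed with quantile normalisation repeated (adjusted p = 0.039). It also passed with the mean of probe sets (adjusted p = 0.0457), but Gstp1 has 1 probe set, so its own value is unchanged there. The call of day 1 was lost without replicate 2 of CLA day 1 (0.49, adjusted p = 0.106) or replicate 2 of control day 1 (0.58, adjusted p = 0.0662). That day is the one with the uneven RNA controls, whose part in the rise was not tested.

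Later the Gstp1 arrays of the diets mixed. On day 3 it read 11.73 and 11.89 with CLA, against 11.66 and 11.88 in controls, and on day 4 it read 11.89 and 11.79 with CLA, against 11.66 and 11.84 in controls. On day 7 it read 11.27 and 11.65 with CLA, against 11.56 and 11.84 in controls, and on day 10 it read 11.43 and 11.85 with CLA, against 11.67 and 11.92 in controls. On day 17 both CLA arrays, at 11.78 and 11.85, lay below both control arrays, at 11.97 and 11.92, with a difference of -0.13 ± 0.16 (adjusted p = 0.655). Over all 7 days the difference was 0.10 ± 0.11 (adjusted p = 0.532), higher on 4 days and lower on 3.

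**Figure D2:**
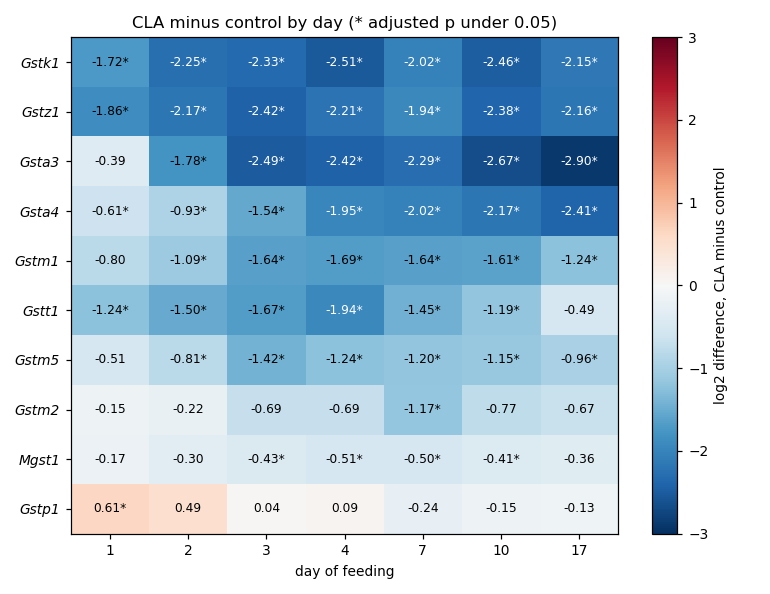
Log2 difference, CLA minus control, of each glutathione transferase (rows, ordered by the difference over all 7 days) on each day of feeding (columns), from 2 arrays a diet; an asterisk marks an adjusted p under 0.05 in limma. Gstk1 and Gstz1 are marked on all 7 days, Gsta3 from day 2 on, and Gstp1 on day 1, where it is positive.

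The effect of CLA late in feeding was set against the early effect, as the mean of days 7, 10 and 17 minus that of days 1, 2 and 3. Here 3 members were more negative late, where 3.51% of all genes were, and no member passed in the other direction, in which 6.20% of all genes did. For Gsta4 the late effect was -2.20 and the early effect -1.03, a difference of -1.17 ± 0.14 (adjusted p = 1.49e-05). For Gsta3 the late effect was -2.62 and the early effect -1.55, a difference of -1.06 ± 0.18 (adjusted p = 0.000702). For Gstp1 the late effect was -0.17 and the early effect 0.38, a difference of -0.56 ± 0.13 (adjusted p = 0.0106). The remaining 7 did not pass, among them Gstz1, at -0.01 ± 0.27, and Gstk1, at -0.11 ± 0.15. The test of whether the CLA effect differed between any of the 7 days passed for 2 members, Gsta3 (adjusted p = 0.000342) and Gsta4 (adjusted p = 0.000199), where 9.82% of all genes passed. Day 1 enters the early effect, so the RNA controls of that day move with this contrast. The p-values of both tests rest on the spread between duplicate arrays, which may be technical.

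**Figure D3:**
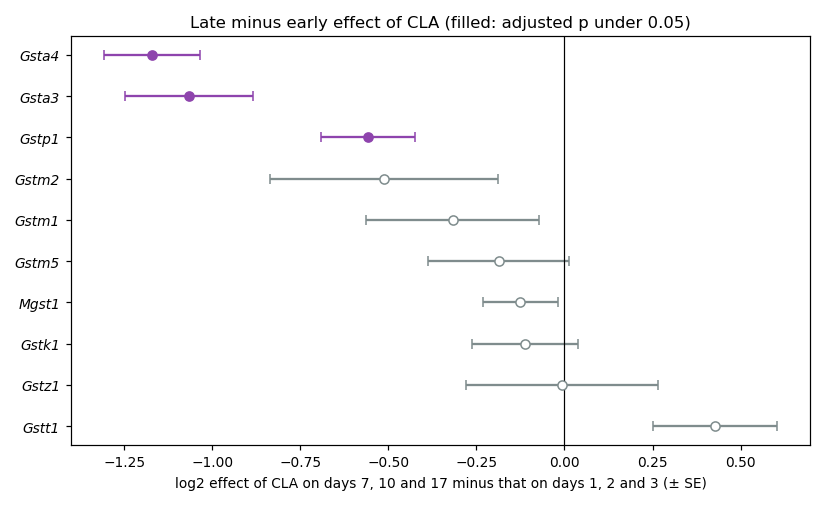
Late minus early log2 effect of CLA (mean of days 7, 10 and 17, less the mean of days 1, 2 and 3) for each glutathione transferase, with bars of 1 SE from limma on 28 arrays; filled points have an adjusted p under 0.05. Gsta4 (-1.17), Gsta3 (-1.06) and Gstp1 (-0.56) are filled, and Gstt1 (0.43) is the one member right of 0.

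The promoters of the members are shown because 9 of them fell over all 7 days. NRF2 and the AP-1 factors, known inducers of glutathione transferases, bind short motifs. The 250 bases before the start of each gene were taken from RefSeq (GRCm38.p6). A window was found for 9 of the 10 members, by symbol, and Gsta4 has no entry. These 9 members have 12 windows, as Gstm1, Mgst1 and Gstz1 have 2 each. The windows were searched on both strands for TGACNNNGC, the core of the antioxidant response element, and TGANTCA, the AP-1 site, which can overlap in the letters TGAC. The core was found in 1 window each of 3 members, Gsta3, Gstm5 and Mgst1. It was found in 10.2% of the 32851 promoter windows of all genes. The AP-1 letters were found in 1 window each of 2 members, Gstm5 and Gstp1, and in 6.75% of all windows. The core as searched has a C after TGA, so stretches with a G there were not counted as a core. In Gstp1 the AP-1 letters TGAGTCA are followed by gc, so this stretch differs from the core as searched only by such a G. In the other 5 members, Gstk1, Gstz1, Gstt1, Gstm1 and Gstm2, neither the core as searched nor the AP-1 letters are in any window. A match is a description of the letters and not a bound site. The 4 windows with a match follow, 5′ to 3′ on the strand of the gene, with the matched letters in capitals. In Gstm5 the first match is the AP-1 letters and the second the core, and in Mgst1, the first of 2 starts, the core lies on the opposite strand.
Gsta3, chr1:21240335-21240584, + strand: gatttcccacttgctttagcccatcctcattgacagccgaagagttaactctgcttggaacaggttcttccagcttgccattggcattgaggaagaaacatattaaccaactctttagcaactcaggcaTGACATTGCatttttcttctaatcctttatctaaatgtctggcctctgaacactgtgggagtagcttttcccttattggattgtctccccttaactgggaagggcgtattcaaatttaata
Gstm5, chr3:107895604-107895853, + strand: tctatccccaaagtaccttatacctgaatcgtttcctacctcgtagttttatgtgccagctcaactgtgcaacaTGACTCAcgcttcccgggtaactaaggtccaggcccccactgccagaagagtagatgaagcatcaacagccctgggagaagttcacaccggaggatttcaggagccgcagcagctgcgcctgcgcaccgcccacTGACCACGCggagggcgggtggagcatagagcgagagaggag
Mgst1, chr6:138140277-138140526, + strand: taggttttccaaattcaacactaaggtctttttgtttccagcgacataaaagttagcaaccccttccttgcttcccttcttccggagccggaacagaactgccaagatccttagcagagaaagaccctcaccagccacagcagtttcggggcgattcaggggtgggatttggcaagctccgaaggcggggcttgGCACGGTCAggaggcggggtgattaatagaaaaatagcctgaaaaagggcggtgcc
Gstp1, chr19:4037913-4038162, − strand: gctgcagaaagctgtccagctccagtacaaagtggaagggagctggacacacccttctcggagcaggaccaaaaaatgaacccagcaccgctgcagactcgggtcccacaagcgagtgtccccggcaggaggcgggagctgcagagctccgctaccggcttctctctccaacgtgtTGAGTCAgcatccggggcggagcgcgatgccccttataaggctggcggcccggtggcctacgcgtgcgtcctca

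Among these, Gsta3 has its core match 121 to 113 bases before the start and fell by 2.13 over all 7 days. Gstm5, with both motifs, fell by 1.04. Mgst1 has its core match 56 to 48 bases before the first of its 2 starts and fell by 0.38. Gstp1 has its AP-1 letters 74 to 68 bases before the start and rose on day 1. Members with a match and members without one are both among the falls, and no test was made over so few genes.

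Over the 14 group means, the genes whose level followed each member best were named by the Pearson correlation r. These points share the split between the diets, so a high r is a description and carries no test. Gstk1 was most like Auh, an enzyme of leucine breakdown, at 0.999, with Cldn22 at 0.995 and Phyh, the peroxisomal phytanoyl-CoA hydroxylase, at 0.994. Gstz1 was most like Adipoq, which encodes adiponectin, and Aldh1l1, a folate enzyme, both at 0.988. Gsta3 was most like Eci3, an enoyl-CoA isomerase, at 0.988, and Gsta4 like Amy1, an amylase, at 0.991. Gstm1 and Gstm5 were both most like Rbms2, an RNA-binding protein, at 0.991 and 0.983. Gstt1 was most like Abca8a, a membrane transporter, at 0.980, Mgst1 like Fbxo9 at 0.987, Gstm2 like Dgcr2 at 0.937 and Gstp1 like Sprr2h at 0.908. Among the members themselves, Gstm1 and Gstm5 were closest at 0.982, followed by Gstk1 and Gstz1 at 0.981 and Gsta3 and Gsta4 at 0.969. Gstp1 had r between -0.35 and 0.18 with the other 9.

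Of 19 other measured transferases and related membrane enzymes, 10 fell and 2 rose over all 7 days, where 19.8% of all genes fell and 18.7% rose, and the list median was -0.62. The risers were Hpgds, the prostaglandin D synthase of the sigma class found in leukocytes, by 2.66 ± 0.45 (adjusted p = 0.00162), and Alox5ap, the protein that presents arachidonic acid to lipoxygenase in leukocytes, by 1.87 ± 0.23 (adjusted p = 0.000271). Ptges, the inducible prostaglandin E synthase, fell by 1.96 ± 0.15 (adjusted p = 3.1e-05), and Mgst3, a microsomal transferase, by 1.66 ± 0.14, with -0.22 for a further Mgst3 probe set of mean 3.30. Mgst3 passed on no single day (adjusted p from 0.0628 to 0.497 in limma). Its value over all 7 days ran from -2.14 to -0.94 under the alternatives. Hpgds differed by 0.24 on day 1 and by 3.82 on day 10, and its late effect was above its early one by 2.25 (adjusted p = 7.97e-07). The 7 that did not pass lay between -0.21 and 0.35.

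Genes that make and recycle glutathione moved both ways. Of 23 measured, 6 rose and 8 fell, where 18.7% of all genes rose and 19.8% fell. The list median was -0.02, and without day 4 the fallers numbered 5. Slc1a5, a glutamine carrier, fell by 1.62 ± 0.12, Me1, a malic enzyme that supplies NADPH, by 1.27 ± 0.11 and Oplah, which returns oxoproline to glutamate, by 1.23 ± 0.21. Chac1, which degrades glutathione in stressed cells, rose by 1.18 ± 0.24. The 2 subunits of glutamate-cysteine ligase, the rate-limiting enzyme, were looked up after the values were seen. The modifier Gclm rose by 1.01 ± 0.25 (adjusted p = 0.0115), with 2.76 on day 1 and 0.29 over all days for a further probe set, and the catalytic Gclc read 0.10 (adjusted p = 0.445), or 0.37 with its further probe set.

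Of 14 measured peroxidases, glyoxalases and glutaredoxins, 7 fell and 1 rose, with a median of -0.27. Over all genes tested 19.8% fell and 18.7% rose, shares that also stand beside the next list of this paragraph. Gpx3, the secreted glutathione peroxidase, fell by 1.11 ± 0.25 (adjusted p = 0.00676), with -1.99 on day 4 and -0.03 on day 17. Hagh, a glyoxalase, fell by 0.90 ± 0.07 and Glrx2, the mitochondrial glutaredoxin, by 0.78 ± 0.10, while Glrx, the cytosolic one, rose by 1.19 ± 0.09. The risers numbered 3 without day 1 and 2 without replicate 1 of every group. Of 10 genes of conjugate export and mercapturate formation, 4 fell and 2 rose, with a median of -0.08. Acy3, an acylase of mercapturates, fell by 1.07 ± 0.12 and Kyat1, a conjugate lyase, by 0.74 ± 0.11. The Kyat1 set used has a low mean of 4.47, its 3 further probe sets gave -0.39, -0.21 and -0.09, and the value was as small as -0.36 under an alternative. The exporter Abcc4 rose by 0.57 ± 0.10, and Abcg2 by 0.38 ± 0.13 (adjusted p = 0.0492), a call lost under 11 of 18 alternatives, among them leaving out any 1 of days 2, 3, 4, 7, 10 and 17, with a highest adjusted p = 0.218. The fallers of this list numbered 2 without replicate 2 of every group.

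Against the fall of the transferases, most genes of NRF2 and its targets rose. Of 17 measured, 13 rose and 1, the catalase gene Cat, fell by 0.58, with a median of 0.54. Of all genes tested 18.7% rose and 19.8% fell. Hmox1, the haem oxygenase, rose by 2.95 ± 0.22, Srxn1, the sulfiredoxin, by 2.23 ± 0.23, Bach1, a repressor at the same elements, by 1.37 ± 0.11 and Blvrb, the biliverdin reductase, by 1.03 ± 0.12, each with an adjusted p of at most 0.0002. Further probe sets gave 0.55 for Bach1 and from 0.86 to 1.95 for Srxn1. On day 1, the day with the uneven RNA controls, Hmox1, Srxn1, Bach1 and Blvrb differed by 4.1, 3.8, 1.63 and 1.385. On day 2 they differed by 2.055, 1.79, 0.715 and 1.185, and on day 17 by 2.375, 1.82, 1.41 and 1.52. Txnrd1 and Sqstm1, looked up after their values were seen, differed by 2.415 and 2.41 on day 1 and by 0.52 and 0.305 on day 2. The part of the RNA controls in these values was not tested. Cat was looked up after its value was seen, and 2 genes of this list fell with the mean of probe sets, with quantile normalisation repeated and without replicate 2 of control days 1 and 2.

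Enzymes that clear lipid aldehydes, epoxides and carbonyls by other routes were divided. Of 22 measured, 10 fell and 5 rose, with a median of 0.05. Over all genes tested 19.8% fell and 18.7% rose, shares that also stand beside the further lists of this paragraph. Cbr3, a carbonyl reductase, rose by 1.91 ± 0.16 and Akr1b8, an aldo-keto reductase, by 1.40 ± 0.16, while Adh1, an alcohol dehydrogenase, fell by 1.58 ± 0.11 and Ephx2, the soluble epoxide hydrolase, by 1.24 ± 0.14. Of 7 genes of phenylalanine and tyrosine breakdown, the pathway of Gstz1, 2 fell and 1 rose. Fah, which acts directly after Gstz1, fell by 1.12 ± 0.08 (adjusted p = 2.0e-05), and Pcbd1 fell by 0.62 ± 0.12. Mif, a cytokine with tautomerase activity, rose by 0.49 ± 0.16 (adjusted p = 0.0389), a call lost under 8 of 18 alternatives, among them leaving out any 1 of days 2, 3, 4, 7, 10 and 17, with a highest adjusted p = 0.195, and its further probe sets gave -0.08 and 0.04. Without replicate 1 of control days 1 and 2, 4 genes of this list fell and 0 rose. Of 16 xenobiotic receptors and partners, 4 fell and 1 rose. Cyp2f2 fell by 2.18 ± 0.28 and Cyp2e1 by 1.79 ± 0.27, both cytochrome P450 enzymes, and the fat cell regulator Pparg by 1.12 ± 0.16, while Cyp1b1, another P450 enzyme, rose by 1.12 ± 0.19. Further Cyp1b1 probe sets gave 1.48, at a mean of 5.14, and -0.09, at a mean of 3.11. The risers of this list numbered 2 without day 1.

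**Figure D4:**
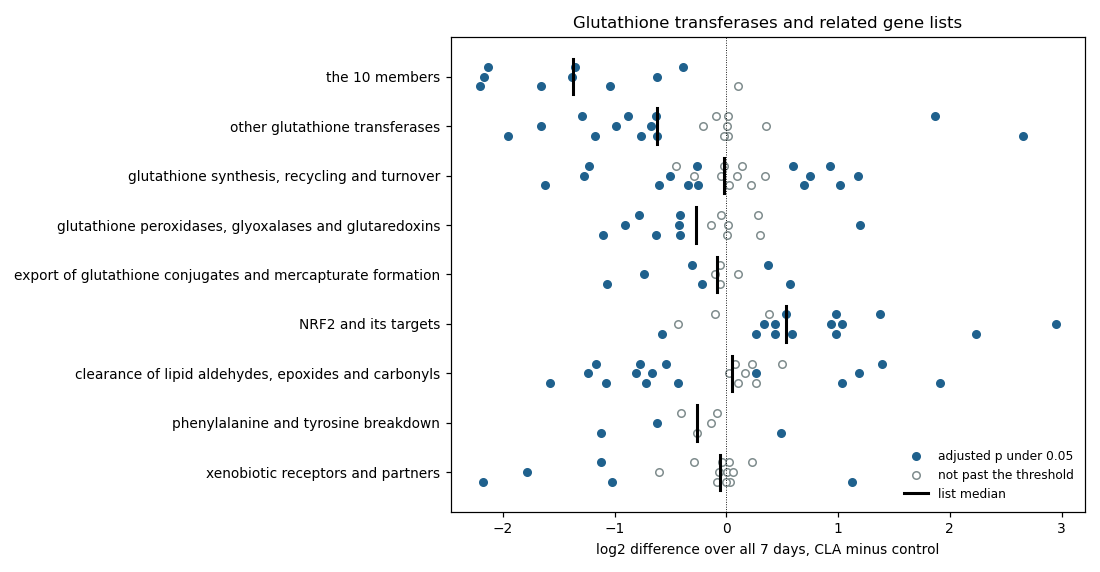
Log2 difference over all 7 days, CLA minus control, of the 10 glutathione transferases and of each gene of 8 related lists (1 point a gene, moved up or down within a row for clarity); filled points have an adjusted p under 0.05 in limma and the bar is the list median. The members' median is -1.37 and that of NRF2 and its targets 0.54.

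Cell type markers moved in the same samples as the transferases, and their part in these results was not tested. Beside the counts of markers over all 7 days, 19.8% of all genes tested fell and 18.7% rose. The summed level of 12 adipocyte markers, on the linear scale, lay between 27453 and 36726 in CLA arrays and between 48058 and 66941 in control arrays, with no overlap, and 12 of 12 fell, with a median of -1.48. The sum of 16 macrophage markers lay between 8130 and 40217 in CLA arrays and between 6866 and 12368 in control arrays, and 14 of 16 rose, with a median of 2.14. Of 10 endothelial markers 7 fell, with sums from 729 to 1768 in CLA arrays and from 1237 to 2213 in control arrays, and of 7 mesothelial markers 4 fell. Of 6 liver markers, a tissue rich in transferases, 2 fell, and their sums reached 767 in 1 CLA array and 2753 in 1 control array, against medians of 140 and 246. Of 9 progenitor and fibroblast markers 2 rose and 1 fell, and of 9 skeletal muscle markers 2 fell. The sums of 8 kidney markers lay between 103 and 127 in CLA arrays and between 102 and 130 in control arrays. Of 10 adrenal markers 1 rose, Star, by 1.18 (adjusted p = 0.0117), with 2.56 on day 1, and 1 fell, with sums from 241 to 547 in CLA arrays and from 223 to 293 in control arrays. Of 7 neutrophil markers 1 rose and 1 fell, with sums from 136 to 844 in CLA arrays and from 131 to 758 in control arrays. On day 1 the neutrophil genes S100a8 and S100a9 differed by 2.57 and 3.48 and Csf3r by 0.72. Mpo, Elane, Ltf and Cxcr2 lay between -0.045 and 0.215 on that day. Over all 7 days S100a8 and S100a9 did not pass (adjusted p = 0.0767 and 0.308 in limma). Of 9 lymphocyte markers 1 rose, with sums from 168 to 206 in CLA arrays and from 173 to 210 in control arrays. Star, S100a8 and S100a9 were singled out after their values were seen. No marker can be read as 0 on this scale.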

How the data were processed

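Expression was measured on Affymetrix oligonucleotide arrays in pooled fat pads, 28 arrays in 14 groups of diet and day. The deposited values are log2 probe-set values that the authors made with RMA (background correction, quantile normalisation and summary of the probes), per the submitters' processing notes, which give no version; the genome build is not given in the sources used here. No dim probe sets were removed, and all 10 members have a mean of at least 5. Arrays have no read depth, and their number limits the precision.

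Of 45101 probe sets, 34958 name 1 gene, 932 several and 9211 none in the probe table, and 34754 of those naming 1 gene matched the reference table (GRCm38.p6) by gene ID. Limma 3.58.1 in R 4.3.3 gave CLA minus control on each day from a model of the 14 groups with 14 residual degrees of freedom. The same model gave late minus early, the diet by day F test and the F test over control days. The effect over all 7 days came from the group means, blocked by day (6 residual degrees of freedom), so that days are the replicates. Tests were two-sided with Benjamini-Hochberg adjustment over 18195 genes, and every adjusted p is from limma. The scripts were tested on simulated data.

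Named are the 10 members, per list the 4 changed genes that differed most over the 7 days (or, where fewer than 2 changed, the 2 with the highest level), and per member the 3 genes most correlated over the 14 group means, of which the text gives 1 to 3. The members and lists were chosen with earlier results of these data known, and the motifs after the members' values were seen. Alternatives were the most variable probe set, the mean of probe sets, a dim filter, 2 scalings, the replicate number as a block, 28 arrays as the unit, and leaving out days or arrays. Replicate numbers were not taken to pair samples in the main model, because the labels state no pairing. The deviations of replicate 1 in CLA and control correlated positively on each day. They ran from 0.098 on day 7 to 0.49 on day 2 and 0.566 on day 1. What the arrays of a replicate number share was not tested, and the replicate block is given as an alternative. Plots used Python 3.11.15 and matplotlib 3.10.9.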

Additional observations from a re-analysis of the deposited data

Results flagged for a closer look

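The effect of CLA differed between days for 3 glutathione transferases by a test of the difference itself. That test measures against the spread between duplicate arrays, which may be technical. Gsta3 was marked by the diet by day interaction (adjusted p = 0.000342 in limma) and by a late minus early effect of -1.06, and it differed by -0.39 on day 1 and by -2.90 on day 17. Gsta4 was marked by the interaction (adjusted p = 0.000199) and by a late minus early effect of -1.17, with -0.61 on day 1 and -2.41 on day 17. Gstp1 was marked by a late minus early effect of -0.56, with 0.61 on day 1 and -0.13 on day 17, and its interaction did not pass (adjusted p = 0.0738). Groups of 2 arrays are too small for a test of single arrays.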

How the results depend on the processing

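With 2 arrays a group, each daily value rests on 4 arrays. Over all 7 days 9 members passed under every alternative run, except for 8 without replicate 2 of control days 1 and 2, a setting chosen, like leaving out replicate 1 of these days, after seeing the data. Late minus early 3 passed under each except the replicate block, with 4, as Gstt1 passed at 0.43 (adjusted p = 0.0331). The diet by day interaction passed for 2 members. It passed for 4 with the mean of a gene's probe sets, with quantile normalisation repeated and with the replicate block, where Gstp1 and Gstt1 were added. Gstt1 alone was added with arrays centred on their median (adjusted p = 0.0482 in limma) and with dim probe sets left out (adjusted p = 0.0476). Gstt1 did not pass with the most variable probe set (adjusted p = 0.0651). For single arrays left out, 2 to 3 members passed. The cause of these changes was not tested. Gstp1 and Gstt1 have 1 probe set each, so the mean of probe sets leaves their own values unchanged. With single arrays left out, the members called numbered 3 to 6 on day 1, 5 to 8 on day 2, 7 to 8 on days 3, 4 and 10, 7 to 9 on day 7 and 5 to 7 on day 17, and 0 across control days. The numbers of replicates are shared without a stated pairing, and the replicate block gave 7 members on day 1, 8 on day 2 and 7 on day 17, adding Gstm1 (adjusted p = 0.00999) and Gstm5 (0.0336) on day 1, Gstp1 (0.0263) on day 2 and Gstt1 (0.0258) on day 17.

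Signs turned only for differences that had not passed: with arrays centred on their median Gstz1 late minus early was 0.033, and with the mean of probe sets Mgst1 on day 1 was 0.028. With single arrays left out, Gstz1 late minus early ran from -0.23 to 0.22, Gstm2 from -0.89 to 0.58 on day 1 and from -0.59 to 0.15 on day 2, and Gstp1 from -0.07 to 0.15 on day 3, from 0.0 to 0.18 on day 4 and from -0.36 to 0.055 on day 10.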
